A study of Mus musculus with 30 samples.

Results

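The genes described here are 40 cell cycle and proliferation genes of the mouse, listed by symbol and found by their Ensembl identifiers among the 53431 genes of the deposited table. They cover 8 roles, from the D cyclins that respond to growth signals to the kinases and structural proteins of mitosis. They were followed in 2 syngeneic tumor models of the BALB/c mouse, CT-26 and Colon 26, which are established cell lines of mouse colon carcinoma. Poly-A RNA was sequenced as 30 libraries in 8 groups, namely 3 libraries per line from cells in culture and 4 libraries per model from tumors taken at 100, at 400 and at 800 mm3. The cells had been grafted under the skin of one flank of female mice of that strain, so a tumor library holds RNA of the host as well as of the cell line. Each model stands on 1 line, and the Colon 26 line had come from 2 suppliers that the labels do not tell apart. The age of the mice is not given in the sources used here. The volumes recorded for CT-26 were 103.33 to 145.86 mm3 in the smallest class, 400.47 to 464.68 mm3 in the middle class and 810.36 to 938.57 mm3 in the largest. For Colon 26 the classes spanned 102.9 to 124.88 mm3, 401.52 to 466.73 mm3 and 807.93 to 963.18 mm3. The submitters' treatment text speaks of antibodies given in the wider study, but no label of a sample names an agent, so the tumors were taken as untreated, which could not be checked further. Each tumor library carries a volume of its own, so the 4 of a group are separate tumors. Nothing in the labels says that the 3 libraries of a line came from separate cultures, so p-values that use them measure the spread between these libraries, which may be technical.

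A cell that divides passes from G1 through DNA synthesis (S) and G2 to mitosis (M). D cyclins with Cdk4 and Cdk6, then E cyclins with Cdk2, release E2F factors that switch on genes for replication, and B-Myb (Mybl2) and FoxM1 switch on the genes of G2 and mitosis. In tumors the mRNAs of these late genes are widely read as a sign of how many cells are dividing, and Ki-67, the product of Mki67, is the stain used for this in pathology.

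The libraries held 21384712 to 39722570 counts on genes. The 3 Colon 26 cultures were the deepest, at 36042925 to 39722570, and the 3 CT-26 cultures were at 21384712 to 27856360. The cultures of the cell lines also carry library numbers of separate series, so in culture a batch and the model cannot be told apart. All 40 genes passed the filter on low counts in every comparison, and the lowest count of any of them in any library was 215. Of 8 markers of colon epithelium, Epcam was at 0 counts in all 6 cultures and Cdh1 had at most 2 counts. The list summed to 41.1 to 42.7 CPM in CT-26 cultures, nearly all of it Krt20 (24.2 to 25.7 CPM) and Krt18 (15.7 to 16.1 CPM), and to 11.3 to 12.1 CPM in Colon 26 cultures, nearly all of it Cdx2 (5.70 to 6.20 CPM) and Krt20 (5.22 to 5.68 CPM). Leukocyte markers summed to 61.0 to 67.7 CPM in CT-26 cultures, nearly all of it Cd68 (59.2 to 66.4 CPM), and to 4.05 to 5.27 CPM in Colon 26 cultures. In both, Ptprc, which marks all leukocytes, was below 1 CPM, at 0.0931 to 0.209 and 0 to 0.0732.

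Levels are given as CPM, read counts scaled to a common library size with TMM factors, in the order of replicates within a group, and levels of different genes are compared only as FPKM, which divides by gene length. Differences are log2 fold changes ± SE from edgeR's quasi-likelihood test, with Benjamini-Hochberg adjustment over all genes tested. A gene was called when its adjusted p was at most 0.1 and its log2 fold change at least 1 in size. In bulk RNA, fewer dividing cells and less mRNA per dividing cell cannot be told apart.

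In culture, the late genes were far lower in CT-26 than in Colon 26. Of the 40 genes, 22 were called higher in Colon 26 cultures and 1, Ccnd2, was called lower. Over all 14334 genes tested, 10.6% were called higher and 12.3% lower. By adjusted p alone, with no minimum fold, 34 of the 40 were higher and 3 lower (42.2% and 40.4% of all genes). The median log2 fold change of the 40 was 1.19, a ratio of 2.28, against 0.01 over all genes. The CT-26 cultures were the lowest of the 8 groups for 30 of the 40 genes, which the plot of all genes by library shows as one block.

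**Figure D1:**
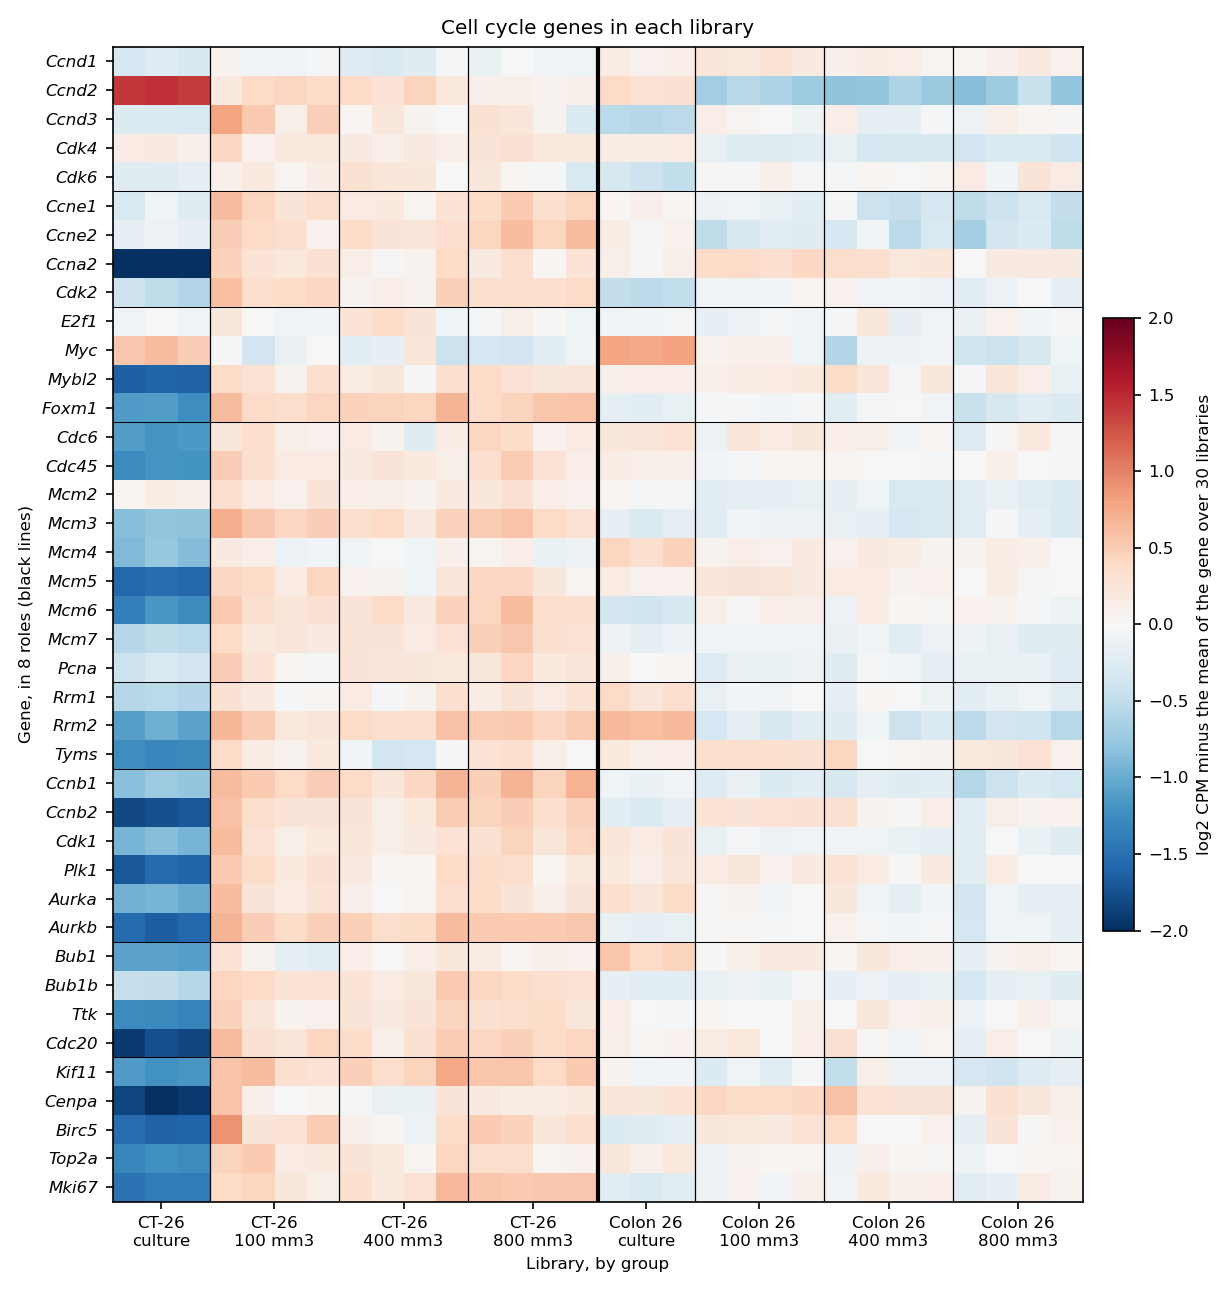
Each row is 1 of the 40 genes and each column 1 of the 30 libraries, and the color gives log2 CPM minus the mean of the gene over the 30 libraries. The 3 CT-26 cultures on the left are the lowest group for 30 of the 40 genes, with Ccnd2 as an exception near the top, and the thick line separates CT-26 from Colon 26.

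Among the D cyclins, which couple growth signals to the cycle, Ccnd1 was higher in Colon 26 cultures and Ccnd2 lower. Ccnd1 (cyclin D1) stood at 939, 995 and 957 CPM in CT-26 cultures and at 1324, 1261 and 1313 CPM in Colon 26 cultures. Ccnd2 (cyclin D2, chr6:127125162-127152193 of GRCm38, minus strand) stood at 430, 447 and 426 CPM in CT-26 and at 212, 198 and 199 CPM in Colon 26. For both genes the cell lines did not overlap, with Ccnd1 higher in Colon 26 (0.48 ± 0.03, adjusted p = 5.7e-11) and Ccnd2 lower (-1.05 ± 0.03, adjusted p = 2.6e-14). Such a separation was common in culture, where 37.8% of all genes had every Colon 26 library above every CT-26 library and 41.9% had every one below, against 33 and 4 of the 40. Ccnd3 (cyclin D3) stood at 83.3, 82.4 and 81.0 CPM in CT-26 and at 69.0, 68.0 and 69.6 CPM in Colon 26, a difference of -0.20 ± 0.03 (adjusted p = 1.8e-05). Their kinases differed little. Cdk4 ranged over 380 to 398 and 391 to 395 CPM (0.06 ± 0.03, adjusted p = 0.063) and Cdk6 over 175 to 184 and 148 to 167 CPM (-0.13 ± 0.04, adjusted p = 0.0061).

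Of the cyclins that act next, cyclin A2 differed most. Ccna2, whose product drives DNA synthesis and the entry into mitosis, stood at 50.5, 49.7 and 50.6 CPM in CT-26 cultures and at 226, 211 and 225 CPM in Colon 26 cultures. This was a 4.54-fold difference (2.18 ± 0.04, adjusted p = 2.4e-17), the second largest of the 40 genes after Cenpa. The cyclins E1 and E2, which act with Cdk2 at the start of S, were 0.31 ± 0.05 and 0.27 ± 0.05 on the log2 scale and were not called. Cdk2 itself lay at 29.0 to 32.8 CPM in CT-26 and within that range, at 30.4 to 31.4 CPM, in Colon 26 (adjusted p = 0.3).

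Of the 4 transcription factors, 2 were called higher in Colon 26 cultures (10.6% of all genes). By adjusted p alone 3 were higher (42.2% of all genes). E2f1, which acts at the G1/S border, stood at 65.9 to 70.3 CPM in CT-26 cultures and 66.8 to 68.0 CPM in Colon 26 cultures (0.05 ± 0.03, adjusted p = 0.2). Myc, a driver of growth and of entry into the cycle, stood at 210, 221 and 203 CPM in CT-26 and 248, 244 and 253 CPM in Colon 26 (0.28 ± 0.03, adjusted p = 4.5e-07). The called factors were Mybl2 and Foxm1, which act on late genes. Mybl2 stood at 15.6, 16.0 and 15.8 CPM in CT-26 and 52.1, 53.2 and 53.1 CPM in Colon 26, and the log2 fold change was 1.79 ± 0.04 (adjusted p = 1.5e-15). Foxm1 stood at 95.8, 96.7 and 88.2 CPM and 182, 179 and 188 CPM, which gave 1.02 ± 0.04 (adjusted p = 2.1e-13) and lies just past the minimum fold.

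Replication genes were uneven, even within 1 complex. The helicase that unwinds DNA at the fork is built from Mcm2 to Mcm7, and its subunits differed between the cultures by log2 fold changes from -0.06 for Mcm2 to 1.71 for Mcm5. Mcm5 stood at 54.2, 56.4 and 54.2 CPM in CT-26 and at 180, 171 and 171 CPM in Colon 26 (adjusted p = 1.2e-16). Mcm4 stood at 63.2, 68.6 and 63.6 CPM and 156, 147 and 160 CPM (1.30 ± 0.04, adjusted p = 2.3e-14). These were the called subunits. Mcm6 lay just below the minimum fold, at 70.7, 82.0 and 76.2 against 143, 139 and 148 CPM (0.96 ± 0.04). Mcm3 stood at 76.2, 79.5 and 79.0 against 123, 112 and 120 CPM (0.65 ± 0.04). Mcm7 was at 0.46 ± 0.03. Mcm2 stood at 173 to 185 CPM in CT-26 and 163 to 172 CPM in Colon 26 (adjusted p = 0.11), so this subunit was not shown to differ.

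The loader and activator of that helicase were both called. Cdc6, which helps to load it, stood at 10.0, 9.61 and 9.81 CPM in CT-26 cultures and 25.5, 25.7 and 26.5 CPM in Colon 26 cultures (1.45 ± 0.06, adjusted p = 7.7e-13). Cdc45, which travels with the active helicase, stood at 21.0, 22.3 and 22.0 CPM and 56.1, 54.8 and 54.3 CPM (1.39 ± 0.04, adjusted p = 1.7e-14). Pcna, the sliding clamp of the polymerases, differed by less, with 245 to 265 CPM in CT-26 and 332 to 353 CPM in Colon 26 (0.48 ± 0.03, adjusted p = 5.7e-10).

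Among the genes that supply nucleotides, Rrm2 encodes the subunit of ribonucleotide reductase that is made in S phase, and Rrm1 its larger partner. Rrm2 stood at 56.4, 61.1 and 57.6 CPM in CT-26 cultures and 189, 182 and 188 CPM in Colon 26 cultures (1.73 ± 0.03, adjusted p = 1.3e-16). Rrm1 stood at 140, 143 and 139 and 271, 245 and 264 CPM and missed the minimum fold (0.94 ± 0.04, adjusted p = 4.8e-13). Tyms, thymidylate synthase, stood at 22.2, 21.4 and 21.6 and 60.1, 57.1 and 57.9 CPM (1.48 ± 0.04, adjusted p = 1.0e-14). All 3 were higher in Colon 26 by adjusted p, as were 42.2% of all genes.

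The genes of mitosis differed as a block, with 13 of 15 called higher in Colon 26, against 10.6% of all genes. Ccnb2 (cyclin B2) stood at 14.3, 14.7 and 15.4 CPM in CT-26 cultures and 42.8, 41.1 and 43.3 CPM in Colon 26 cultures (1.57 ± 0.05, adjusted p = 3.4e-14). Its kinase Cdk1 stood at 61.7, 65.7 and 62.2 CPM and 139, 133 and 141 CPM (1.17 ± 0.03, adjusted p = 2.1e-14). Ccnb1 (cyclin B1) was one of the exceptions, at 53.5, 58.1 and 56.2 CPM and 90.5, 87.6 and 91.2 CPM (0.73 ± 0.03). Of the kinases that time mitosis, Plk1 differed most. It stood at 17.5, 19.3 and 18.7 CPM in CT-26 and 65.0, 62.3 and 67.1 CPM in Colon 26 (1.86 ± 0.04, adjusted p = 2.1e-15). Aurka, the kinase of the spindle poles, stood at 29.8, 30.4 and 28.8 and 73.2, 68.6 and 74.5 CPM (1.33 ± 0.04). Aurkb, the kinase of the chromosomal passenger complex, stood at 23.4, 21.7 and 22.9 and 61.8, 59.9 and 61.6 CPM (1.49 ± 0.04).

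The spindle checkpoint holds chromosomes until all are attached, and Cdc20 activates the ligase that then separates them. Cdc20 (chr4:118432901-118437352, minus strand) stood at 30.5, 33.7 and 32.6 CPM in CT-26 cultures and 124, 118 and 121 CPM in Colon 26 cultures, a 3.88-fold difference (1.96 ± 0.04, adjusted p = 1.1e-16). The checkpoint kinase Bub1 stood at 35.7, 35.7 and 35.0 and 111, 98.4 and 102 CPM (1.60 ± 0.04, adjusted p = 1.0e-14). Ttk, also a checkpoint kinase, stood at 14.0, 13.7 and 13.3 and 36.7, 33.3 and 33.0 CPM (1.38 ± 0.06, adjusted p = 1.4e-12). Bub1b was the other exception, at 56.7 to 61.0 against 72.2 to 75.4 CPM (0.36 ± 0.04).

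Cenpa, the histone H3 variant of centromeres (chr5:30666777-30674830, plus strand), had the largest difference of the 40. It stood at 16.8, 15.1 and 16.0 CPM in CT-26 cultures and 71.3, 70.4 and 73.7 CPM in Colon 26 cultures, a 4.67-fold difference (2.22 ± 0.05, adjusted p = 3.4e-16). Kif11, the motor that pushes the spindle poles apart, stood at 35.7, 34.0 and 35.2 and 82.9, 75.4 and 75.8 CPM (1.21 ± 0.04). Birc5 (survivin) stood at 28.5, 26.6 and 27.0 and 67.5, 68.8 and 71.8 CPM (1.40 ± 0.04). All 3 encode proteins of the dividing chromosome or spindle. Top2a, the topoisomerase that untangles chromosomes, stood at 167, 177 and 170 and 484, 444 and 477 CPM (1.50 ± 0.03). The proliferation marker Mki67 (chr7:135689784-135716361, minus strand) stood at 146, 154 and 154 CPM in CT-26 and 351, 335 and 351 CPM in Colon 26, a 2.37-fold difference (1.24 ± 0.03, adjusted p = 3.5e-15).

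Other cell cycle genes followed the same direction in culture. Of 86 listed, 82 were tested, and 33 were called higher in Colon 26, against 10.6% of all genes. By adjusted p alone 75 were higher and 4 lower (42.2% and 40.4% of all genes). The median was 0.87, with 21 of 35 other mitotic genes and 5 of 23 other replication genes called. The 4 largest were Spc24, a kinetochore subunit (2.26 ± 0.06), Tk1, thymidine kinase (1.81 ± 0.05), Cdca8, of the chromosomal passenger complex (1.69 ± 0.04), and Cdkn2c, an inhibitor of Cdk4 and Cdk6 (1.68 ± 0.05). Cdkn1a (p21), named after its values were seen, stood at 380, 383 and 387 CPM in CT-26 cultures and 325, 320 and 324 CPM in Colon 26 cultures (-0.19 ± 0.03, adjusted p = 5.6e-06).

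The promoters of the 40 genes were read for 3 motifs that are known from cell cycle genes. RefSeq (GRCm38.p6) gave a window of 250 bases before to 50 after the start for 32 of them. The cell cycle genes homology region (CHR, searched as TTTGAA or TTCGAA) and the CCAAT box (CCAAT) are elements of many G2/M promoters, and E2F sites (searched as TTTGGCGC, TTTCCCGC, TTTCGCGC or TTTGCCGC) of many S phase promoters. All were searched on both strands, and matches of the E2F letters can overlap one another. The 5 promoters printed here show the range, as 250 bases before the start, 5′ to 3′ on the strand of the gene, with the motifs in capitals. Cdc20 (chr4:118437344-118437593, minus strand) and Cdk1 (chr10:69352913-69353162, minus strand) are mitotic genes called in culture, and Mki67 (chr7:135716380-135716629, minus strand) is the marker. Mcm5 (chr8:75109259-75109508, plus strand) is a replication gene that was called, and Cdk4 (chr10:127063285-127063534, plus strand) was at 0.06 in the same comparison.
Cdc20: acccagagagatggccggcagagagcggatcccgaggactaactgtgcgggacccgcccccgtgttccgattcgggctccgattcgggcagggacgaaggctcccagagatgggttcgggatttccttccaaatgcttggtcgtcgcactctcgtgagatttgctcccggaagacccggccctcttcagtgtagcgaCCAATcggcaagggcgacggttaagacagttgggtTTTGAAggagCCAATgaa
Cdk1: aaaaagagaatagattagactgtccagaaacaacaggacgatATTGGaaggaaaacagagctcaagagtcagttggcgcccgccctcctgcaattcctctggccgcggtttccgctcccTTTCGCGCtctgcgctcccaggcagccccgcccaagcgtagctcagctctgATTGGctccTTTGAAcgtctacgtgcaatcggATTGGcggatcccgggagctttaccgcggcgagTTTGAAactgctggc
Mki67: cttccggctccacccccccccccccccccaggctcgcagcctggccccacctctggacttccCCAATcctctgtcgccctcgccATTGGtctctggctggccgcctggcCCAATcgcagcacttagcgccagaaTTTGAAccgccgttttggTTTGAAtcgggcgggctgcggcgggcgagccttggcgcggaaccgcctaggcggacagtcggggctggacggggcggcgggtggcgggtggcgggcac
Mcm5: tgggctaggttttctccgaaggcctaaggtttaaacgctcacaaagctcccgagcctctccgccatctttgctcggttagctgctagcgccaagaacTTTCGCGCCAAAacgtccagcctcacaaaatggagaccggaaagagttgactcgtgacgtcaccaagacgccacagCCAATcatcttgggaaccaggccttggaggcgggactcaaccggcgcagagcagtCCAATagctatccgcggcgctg
Cdk4: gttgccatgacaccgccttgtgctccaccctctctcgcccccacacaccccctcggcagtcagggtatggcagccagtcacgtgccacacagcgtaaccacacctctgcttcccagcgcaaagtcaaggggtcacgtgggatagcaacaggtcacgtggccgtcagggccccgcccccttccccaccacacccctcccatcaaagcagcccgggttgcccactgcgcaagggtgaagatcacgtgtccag
The Cdc20 promoter had CHR letters from -18 to -13 between CCAAT boxes, and Mki67 had CHR letters at -116 and at -98 downstream of 3 CCAAT boxes. Cdk1 carried CHR, CCAAT and E2F letters, Mcm5 carried E2F letters that overlap each other and CCAAT boxes without CHR letters, and Cdk4 carried none of the 3 motifs. Of the 18 genes with a window that were called higher in Colon 26 cultures, 12 (66.7%) had CHR letters, all 12 of them together with a CCAAT box. Of the other 14 genes, 3 (21.4%) had them. Most of the 12 were mitotic genes, and most mitotic genes were called. The split by call thus largely repeats a split by role, and no comparison within a role was made. Among mitotic genes that were not called, Bub1b had CHR letters and Ccnb1 had none. CHR letters were found in 19.2% of all 32851 promoter windows (21.7% of genes) and together with a CCAAT box in 7.52% (8.61% of genes). CCAAT boxes, counted with or without CHR letters, were about as frequent in the called genes (77.8%) as in the others (71.4%). Over all promoters they were in 41.1% of genes and 37.4% of windows. E2F letters were found in 16.7% of the called and 28.6% of the other genes, against 2.6% of all genes and 2.26% of all windows. A match describes letters in a window and shows no binding.

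In tumors, the difference between the models in these genes was small and mostly pointed the other way. The plot of both comparisons shows the late genes far to the right of 0 in culture and mostly left of it in 100 mm3 tumors.

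**Figure D2:**
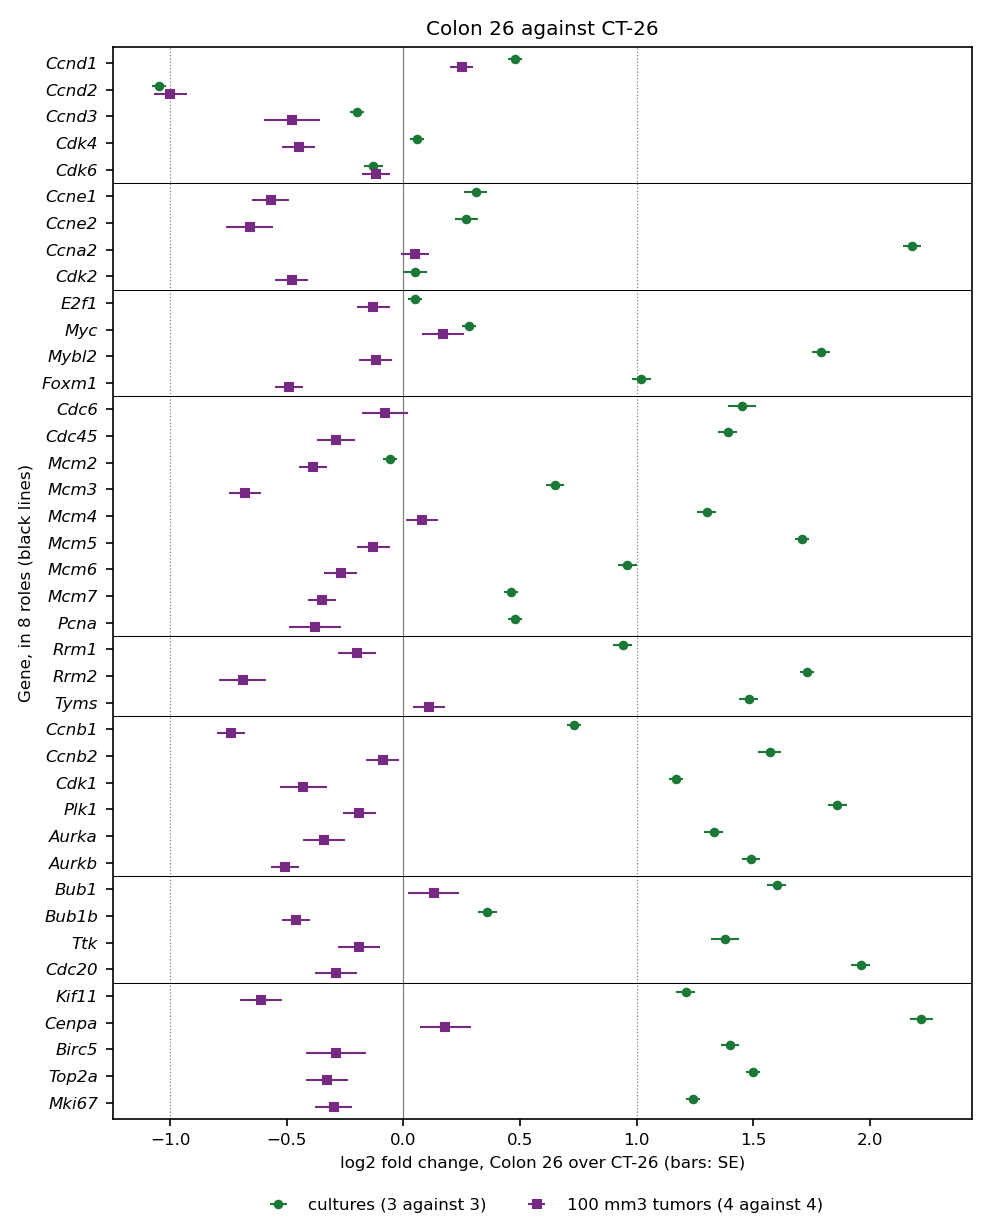
The x axis gives the log2 fold change of Colon 26 over CT-26 with its SE, for the 40 genes in 8 roles, in cultures (circles) and in 100 mm3 tumors (squares). The dotted lines mark the minimum fold of a call, which 22 genes passed on the right in culture and none in 100 mm3 tumors.

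In 100 mm3 tumors, edgeR's test called 0 of the 40 genes (6.17% of all 15406 genes were called higher and 7.06% lower), and DESeq2 also called 0. At an unadjusted p under 0.05, 1 was higher and 26 were lower in Colon 26 (25.8% and 29.6% of all genes). With no minimum fold, 28 were lower and 1, Ccnd1, was higher by adjusted p, against 30.1% and 26.4% of all genes, with a median of -0.30. In 400 mm3 tumors edgeR's test and DESeq2 called 1 gene, Ccnd2, lower (background 7.79%) and 0 higher (background 6.48%), and 4 were higher and 23 lower at an unadjusted p under 0.05 (25.7% and 26.1% of all genes). With no minimum fold, 24 were lower and 4 higher by adjusted p (26.3% and 25.9% of all genes), and the median was -0.22. In 800 mm3 tumors 0 were called by edgeR's test or DESeq2 (background 6.50% higher and 7.62% lower), with 1 higher and 30 lower at an unadjusted p under 0.05 (27.6% and 30.4% of all genes). The counts by adjusted p with no minimum fold were 30 lower and 1 higher (31.0% and 28.3% of all genes), with a median of -0.41. Markers of leukocytes and of fibroblasts and pericytes in the same tumors ranged as follows. Cd68 in CT-26 and Pdgfra and Pdgfrb in both lines were also found in cultures. The sums may therefore include RNA of the cell line. Leukocyte markers summed to 552 to 1076 CPM in CT-26 and 744 to 1010 CPM in Colon 26 at 100 mm3, to 253 to 706 and 565 to 848 CPM at 400 mm3, and to 520 to 718 and 712 to 983 CPM at 800 mm3. Fibroblast and pericyte markers summed to 912 to 1712 and 1554 to 2096 CPM at 100 mm3, to 924 to 1700 and 1090 to 1573 CPM at 400 mm3, and to 910 to 1166 and 945 to 2188 CPM at 800 mm3. These sums hide single markers that went either way. Of the 11 leukocyte markers tested, 0, 1 and 0 were called higher in Colon 26 at the 3 sizes, and 1, 4 and 2 lower. Of the 8 fibroblast and pericyte markers, 3, 3 and 2 were called higher and 1 lower at each size. The part of host cells in the differences between the models was not tested.

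Mki67, the marker used in pathology, stood at 539, 550, 477 and 442 CPM in CT-26 tumors of 100 mm3 and at 378, 432, 392 and 435 CPM in Colon 26 tumors of that size. The groups did not overlap, and the difference of -0.30 ± 0.08 (adjusted p = 0.016) was a ratio of 1.23 in favor of CT-26. At this size 25.0% of all genes had every Colon 26 tumor below every CT-26 tumor, and 22.9% every one above. At 400 mm3 it was 510, 464, 495 and 635 against 386, 468, 439 and 445 CPM, with overlap (-0.27 ± 0.11, adjusted p = 0.062). At 800 mm3 it was 600, 587, 593 and 589 against 353, 362, 451 and 426 CPM, a ratio of 1.49 (-0.58 ± 0.08, adjusted p = 2.2e-04).

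Mitotic genes with the same direction at every size included Ccnb1, which came nearest to a call. It stood at 133, 154, 130 and 155 CPM in CT-26 tumors of 800 mm3 and 64.7, 71.1, 78.8 and 75.0 CPM in Colon 26 tumors, and its log2 fold changes from 100 to 800 mm3 were -0.74 ± 0.06, -0.68 ± 0.09 and -0.99 ± 0.08. Kif11 was at -0.61 ± 0.09, -0.65 ± 0.13 and -0.80 ± 0.06, and Aurkb at -0.51 ± 0.06, -0.47 ± 0.07 and -0.71 ± 0.07. Foxm1 was lower by a similar amount (-0.49 ± 0.06, -0.58 ± 0.08 and -0.80 ± 0.07), with adjusted p values of 2.7e-04, 3.5e-04 and 8.6e-06. Cenpa and Ccna2, with the largest differences in culture, did not differ in this way. Ccna2 was at 0.05 ± 0.06, 0.12 ± 0.09 and -0.07 ± 0.07, none past the adjusted p. Cenpa was at 0.18 ± 0.11, 0.36 ± 0.11 and 0.00 ± 0.06, and passed the threshold at 400 mm3 only (adjusted p = 0.026). At that size Colon 26 replicate 1, which held the most skeletal muscle RNA, stood apart in Cenpa by 0.977 of the range of its group.

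Of the S phase genes, Rrm2 stood at 171, 173, 161 and 172 CPM in CT-26 tumors of 800 mm3 and 83.5, 93.1, 91.2 and 82.2 CPM in Colon 26 tumors (-0.96 ± 0.06, adjusted p = 1.4e-06). Ccne2 was close to it (-0.98 ± 0.10), and Ccne1 was at -0.84 ± 0.07. Leaving out single libraries brought Ccnb1 and Ccne2 past the minimum fold at 800 mm3, with log2 fold changes down to -1.03 for each. The helicase subunits Mcm3 and Mcm7 were lower at every size, Mcm3 at -0.68 ± 0.07, -0.57 ± 0.08 and -0.63 ± 0.08. Tyms was not shown to differ at 100 or 800 mm3 (0.11 ± 0.07 and 0.01 ± 0.08) and was higher in Colon 26 at 400 mm3 (0.34 ± 0.12, adjusted p = 0.049). There the groups overlapped, and Colon 26 replicate 1 stood apart (70.8 against 52.9 to 55.0 CPM).

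Ccnd1 and Ccnd2 kept, at each size, the direction they had in culture. Ccnd2 stood at 185, 213, 219 and 208 CPM in CT-26 tumors of 100 mm3 and 100, 110, 105 and 99.1 CPM in Colon 26 tumors. Its log2 fold change there was -1.0 ± 0.07 (adjusted p = 8.4e-06), just short of a call, and it was called without CT-26 replicate 1 (-1.03) or Colon 26 replicate 2 (-1.01). At 400 mm3 it was 214, 197, 220 and 188 against 92.2, 95.1, 105 and 96.5 CPM (-1.08 ± 0.07, adjusted p = 1.4e-05) and at 800 mm3 173, 173, 170 and 173 against 89.7, 99.4, 119 and 93.4 CPM (-0.79 ± 0.08, adjusted p = 3.1e-05). Every CT-26 tumor was above every Colon 26 tumor of its size, as for 25.0%, 22.0% and 25.3% of all genes at 100, 400 and 800 mm3. Ccnd1 was higher in Colon 26 at each size, at 1248, 1144, 1129 and 1163 against 1414, 1369, 1448 and 1356 CPM at 100 mm3 (0.25 ± 0.05, adjusted p = 0.0045), 0.31 ± 0.07 at 400 mm3 and 0.17 ± 0.06 at 800 mm3. Ccnd3 stood at 173, 145, 109 and 140 CPM in CT-26 and 110, 104, 101 and 93.4 CPM in Colon 26 at 100 mm3, with overlap (-0.48 ± 0.12, adjusted p = 0.011), and did not pass the test at 400 or 800 mm3.

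**Figure D3:**
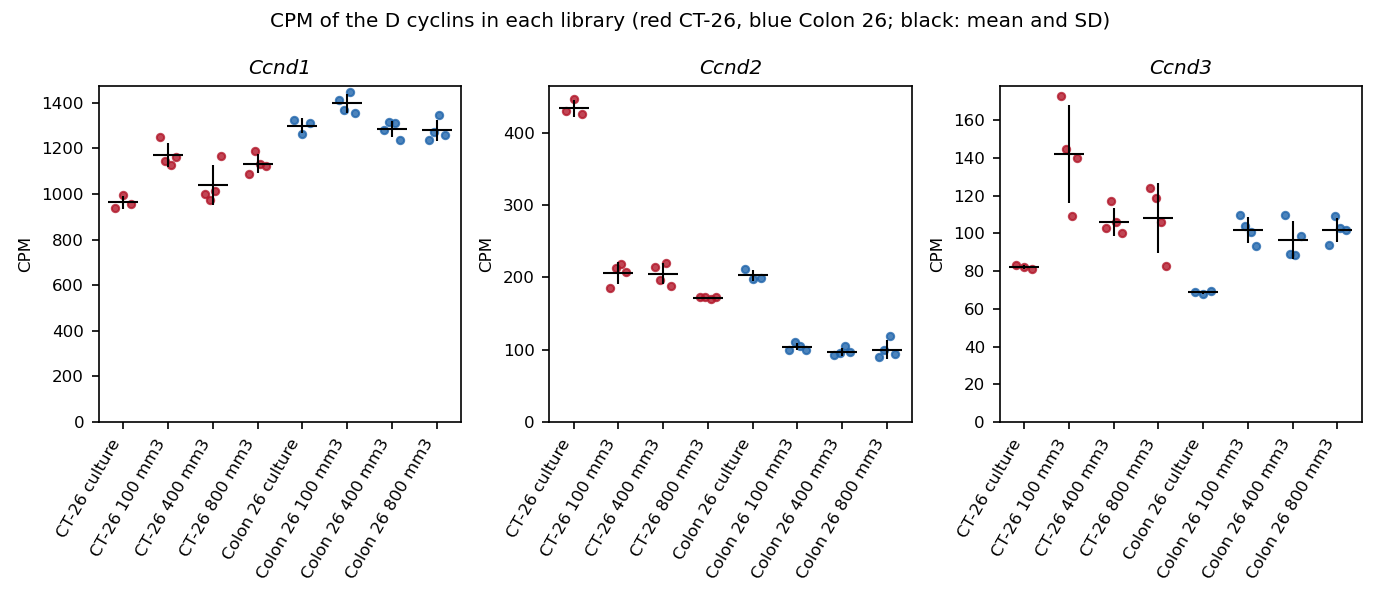
The y axes give CPM of Ccnd1, Ccnd2 and Ccnd3 in each library of the 8 groups, with black bars for the mean and SD. Ccnd2 is highest in the CT-26 cultures (426 to 447 CPM) and lies lower in tumors of either model, while Ccnd1 stays between 939 and 1448 CPM throughout.

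Per length, Ccnd1 was the most abundant of the 40 genes, at 251 to 391 FPKM over the 30 libraries, and Cdc6 the least, at 3.09 to 9.32 FPKM. Of the FPKM summed over the D cyclins, Ccnd1 made up 69.7% ± 0.464 (SD, n = 3) in CT-26 cultures and 83.7% ± 0.122 (SD, n = 3) in Colon 26 cultures. Ccnd2 made up 19.0% ± 0.175 (SD, n = 3) and 7.89% ± 0.159 (SD, n = 3). In 100 mm3 tumors the share of Ccnd2 was 8.03% ± 0.934 (SD, n = 4) in CT-26 and 3.79% ± 0.222 (SD, n = 4) in Colon 26. In either model the tumors thus held a smaller share of Ccnd2 than the cultures, at every size.

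Myc was not shown to differ between the models in tumors. It stood at 142, 111, 130 and 144 CPM in CT-26 and 152, 154, 154 and 136 CPM in Colon 26 at 100 mm3 (0.17 ± 0.09, adjusted p = 0.14). At 400 mm3 it was 124, 129, 170 and 107 against 95.8, 134, 135 and 139 CPM (-0.07 ± 0.16) and at 800 mm3 113, 111, 124 and 137 against 109, 107, 116 and 136 CPM (-0.05 ± 0.09). The groups overlapped at each size.

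Of the 86 other cell cycle genes 85 were tested between the models in tumors. At 100 mm3, 2 were called lower in Colon 26 and 1 higher (background 7.06% and 6.17%). Aspm, a protein of the spindle poles, stood at 106, 114, 89.7 and 88.6 CPM in CT-26 and 38.9, 42.7, 36.7 and 47.7 CPM in Colon 26 (-1.27 ± 0.11, adjusted p = 2.7e-05). The kinetochore gene Nuf2 stood at 85.3, 75.8, 70.0 and 74.6 and 34.0, 35.7, 35.0 and 36.9 CPM (-1.12 ± 0.07, adjusted p = 4.0e-06). Cdkn1c, an inhibitor of Cdk2 complexes, was called higher in Colon 26 (1.23 ± 0.40, adjusted p = 0.03) but rested on 2 to 28 counts per library. At 400 mm3 only Aspm was called (-1.28 ± 0.10), against 7.79% of all genes lower and 6.48% higher. At 800 mm3, 7 of the 85 were called lower, a share near the background of 7.62%, and 1, Cdkn1c, higher (1.59 ± 0.42, background 6.50%). The 4 largest decreases were Aspm (-1.43 ± 0.06), Chek2, a kinase of the DNA damage response (-1.36 ± 0.09), Racgap1, which acts in cytokinesis (-1.25 ± 0.05), and Rfc5, a subunit of the clamp loader (-1.16 ± 0.07). Aspm was not lower in culture, where it stood at 50.5, 52.2 and 52.1 CPM in CT-26 and 50.8, 47.8 and 51.9 CPM in Colon 26 (log2 fold change 0.01 ± 0.04, adjusted p = 0.8). By median, the 85 tested were at -0.26, -0.23 and -0.42 in the 3 sizes.

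The change from culture to tumor was tested within each model. In both models the library numbers of the cultures lie apart from those of the tumors. A batch and the change from culture to tumor therefore cannot be told apart. The comparisons use the same culture and 100 mm3 libraries as those above, so they are other views of the same values and no independent evidence. In CT-26, 24 of the 40 genes were called higher in 100 mm3 tumors than in cultures and 1, Ccnd2, lower. The background was 22.2% of all 15370 genes higher and 10.1% lower. Adjusted p alone gave 35 higher and 2, Ccnd2 and Myc, lower (40.8% and 34.7% of all genes), and the median was 1.33 against 0.06 over all genes. In Colon 26, edgeR's test and DESeq2 called 0 of the 40 in either direction, while 20.8% of all 15946 genes were called higher and 6.12% lower. At an unadjusted p under 0.05, 15 were higher and 16 lower in Colon 26 tumors (41.3% and 34.9% of all genes). Adjusted p alone gave 15 higher and 17 lower (42.6% and 36.3% of all genes), and the median was -0.01 against 0.05.

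**Figure D4:**
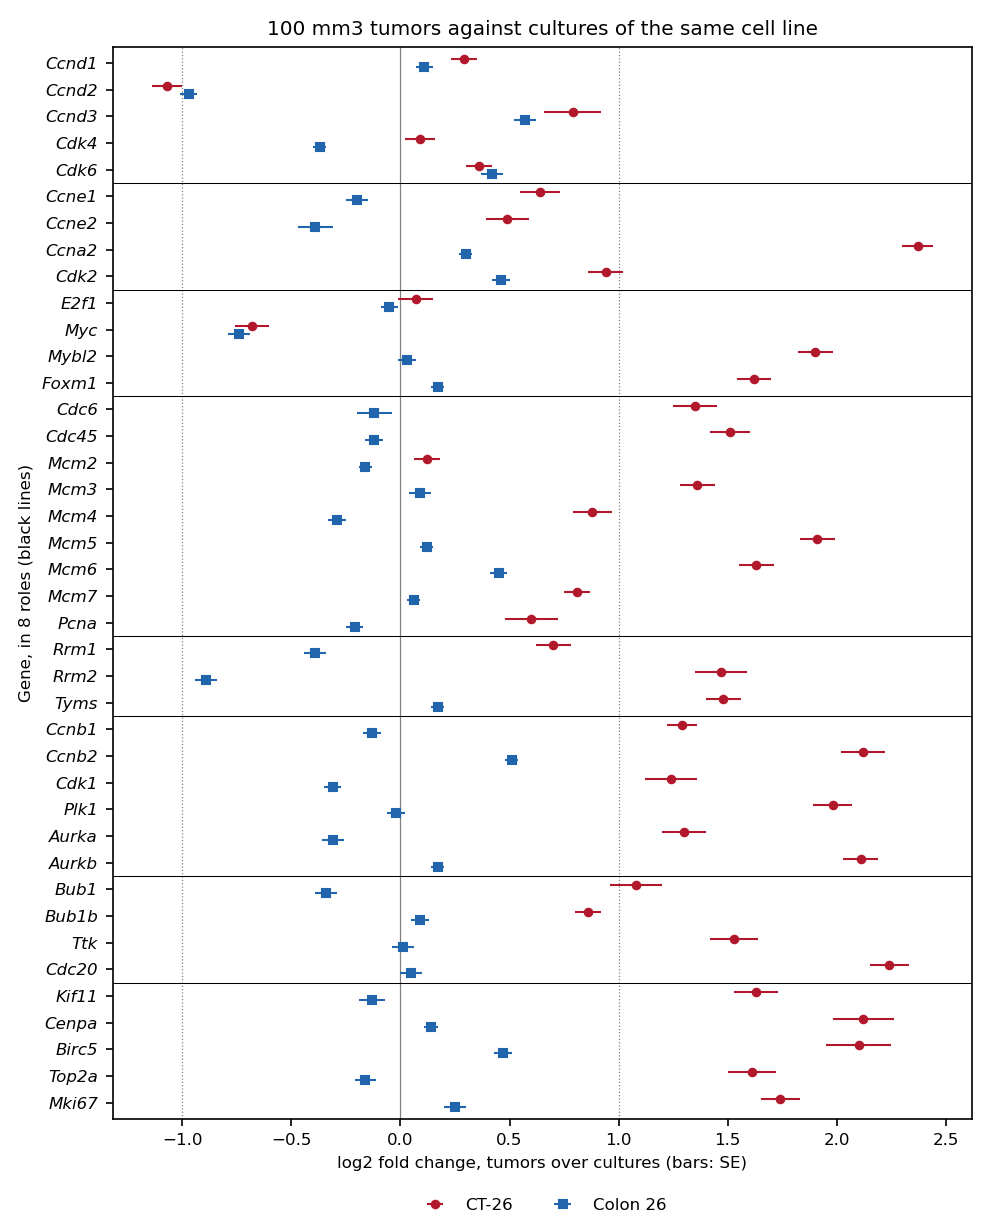
The x axis gives the log2 fold change of 100 mm3 tumors over cultures of the same cell line with its SE, for the 40 genes in 8 roles, in CT-26 (circles) and Colon 26 (squares). In CT-26, 24 genes lie past the dotted line on the right, while all genes of Colon 26 lie between the dotted lines.

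The 3 largest increases in CT-26 were in Ccna2, Cdc20 and Cenpa, with Ccnb2 level with Cenpa at 2.12 ± 0.10. Ccna2 rose from 50.5, 49.7 and 50.6 CPM in culture to 286, 251, 240 and 258 CPM in tumors, 5.17-fold (2.37 ± 0.07, adjusted p = 2.7e-07). Cdc20 rose from 30.5, 33.7 and 32.6 to 177, 142, 135 and 155 CPM (2.24 ± 0.09, adjusted p = 8.1e-07). Cenpa rose from 16.8, 15.1 and 16.0 to 89.4, 64.3, 60.9 and 62.7 CPM (2.12 ± 0.14, adjusted p = 5.3e-06). No tumor overlapped a culture for these genes, and 38.3% of all genes had every CT-26 tumor of 100 mm3 above every culture. In Colon 26 the same genes stood at 226, 211 and 225 against 269, 271, 264 and 276 CPM for Ccna2 (0.30 ± 0.03), 124, 118 and 121 against 127, 132, 115 and 125 CPM for Cdc20 (0.05 ± 0.05) and 71.3, 70.4 and 73.7 against 80.7, 77.7, 78.3 and 79.9 CPM for Cenpa (0.14 ± 0.03).

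All 6 genes of the B cyclins, Cdk1 and the mitotic kinases were called higher in CT-26 tumors, against 22.2% of all genes. Their log2 fold changes were 1.24 to 2.12. In Colon 26 tumors 2 of the 6 were higher by adjusted p alone and 3 lower, from -0.31 to 0.51. Over all genes 42.6% were higher and 36.3% lower there by adjusted p alone. Ccnb2 accounts for the upper end, at 60.1, 59.7, 60.6 and 61.3 CPM in tumors and 42.8, 41.1 and 43.3 CPM in cultures of Colon 26 (0.51 ± 0.03, adjusted p = 1.4e-06). Mki67 rose 3.33-fold in CT-26 (1.74 ± 0.09) and 1.19-fold in Colon 26 (0.25 ± 0.05, adjusted p = 0.0025). All 5 genes of the role that holds Mki67 were called higher in CT-26 and none in Colon 26 (22.2% and 20.8% of all genes).

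Of the 9 replication genes, 5 were called higher in CT-26 tumors, against 22.2% of all genes. They were led by Mcm5 at 214, 210, 180 and 218 CPM (1.91 ± 0.08) and Mcm6 at 266, 230, 219 and 228 CPM (1.63 ± 0.08). Mcm2 was not shown to change (0.12 ± 0.06, adjusted p = 0.14). In Colon 26, 2 of the 9 were higher and 4 lower by adjusted p alone (42.6% and 36.3% of all genes). Mcm4 fell there, from 156, 147 and 160 to 122, 128, 124 and 132 CPM (-0.29 ± 0.04), and Mcm6 rose, from 143, 139 and 148 to 197, 188, 202 and 197 CPM (0.45 ± 0.04).

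Rrm2 moved in opposite directions in the models. It rose from 56.4, 61.1 and 57.6 CPM in CT-26 cultures to 190, 172, 140 and 142 CPM in CT-26 tumors (1.47 ± 0.12, adjusted p = 1.2e-05). It fell from 189, 182 and 188 CPM in Colon 26 cultures to 94.3, 106, 96.3 and 104 CPM in Colon 26 tumors (-0.89 ± 0.05, adjusted p = 2.5e-07). The tumors of neither model overlapped their cultures, as for 38.3% of all genes in the CT-26 direction and 34.6% in the Colon 26 direction. Rrm1 rose by 0.70 ± 0.08 in CT-26, to 258, 235, 204 and 213 CPM, and stood at 187, 201, 199 and 209 CPM in Colon 26 tumors (-0.39 ± 0.05).

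Ccnd2 and Myc fell in both models. Ccnd2 fell by 1.07 on the log2 scale in CT-26 (SE 0.07, adjusted p = 6.4e-06) and by 0.97 in Colon 26 (SE 0.04, adjusted p = 1.3e-07). Myc was at -0.68 ± 0.08 in CT-26 (adjusted p = 1.4e-04) and -0.74 ± 0.05 in Colon 26 (adjusted p = 1.0e-06). Ccnd3 rose in both, by 0.79 ± 0.13 and 0.57 ± 0.05, and Cdk6 by 0.36 ± 0.06 and 0.42 ± 0.05. Cdkn1a, named after its values were seen, stood at 169 to 243 CPM in CT-26 tumors (-0.96 ± 0.11) and was called lower in Colon 26, at 139 to 159 CPM (-1.15 ± 0.05).

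The other cell cycle genes split between the models in the same comparisons. In CT-26 tumors 50 of 83 tested were called higher than in culture, against 22.2% of all genes, and the median was 1.19. Among the 50 were 27 of 35 mitotic and 10 of 23 replication genes. In Colon 26 tumors 4 of 85 were called higher and 1 lower (20.8% and 6.12% of all genes), with a median of -0.02. The 5, named after their values were seen, were Cdkn1c, Cdkn2a, Cdkn2b and E2f2 (1.20 ± 0.17), which were higher, and Cdkn1a. Cdkn2a and Cdkn2b encode inhibitors of Cdk4 and Cdk6. No gene of the replication or mitosis lists was among them.

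Markers of other cell types differed between tumors and cultures as well. From cultures to 100 mm3 tumors, the 12 leukocyte markers went from a sum of 61.0 to 67.7 CPM to 552 to 1076 CPM in CT-26, and from 4.05 to 5.27 CPM to 744 to 1010 CPM in Colon 26. The 8 markers of fibroblasts and pericytes went from 66.0 to 69.8 CPM to 912 to 1712 CPM in CT-26 and from 106 to 113 CPM to 1554 to 2096 CPM in Colon 26. In CT-26 cultures most of the sum was Pdgfra (20.3 to 21.9 CPM) and Pdgfrb (33.7 to 34.1 CPM). The same held for Colon 26 cultures (33.7 to 35.3 and 68.6 to 73.3 CPM). Col3a1 was the largest part in 100 mm3 tumors, at 628 to 1207 CPM in CT-26 and 1131 to 1607 CPM in Colon 26. The 6 endothelial markers went from 16.5 to 18.6 CPM to 59.2 to 195 CPM in CT-26. In Colon 26 they went from 0.586 to 0.703 CPM to 110 to 148 CPM. Vwf made up most of the sum in CT-26 cultures, at a mean of 17.0 CPM, and had a mean of 0.910 CPM in CT-26 tumors. Of the 6 endothelial markers, 5 were called higher and 1 lower in CT-26 tumors (22.2% and 10.1% of all genes). All 6 were called higher in Colon 26 tumors (20.8% of all genes). The 6 skeletal muscle markers, at 2.09 to 2.46 CPM in all 6 cultures, summed to 1.39 to 516 CPM in CT-26 tumors and 121 to 1340 CPM in Colon 26 tumors of 100 mm3. In cultures 6 of 12 leukocyte markers were at 3 or fewer counts in CT-26 and 8 of 12 in Colon 26. The part of these cells in the changes from culture to tumor was not tested.

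The difference between the models in the change from culture to 100 mm3 tumors was tested as an interaction over the 14 libraries. It was called lower in Colon 26 for 26 of the 40 genes and higher for 0, against 9.31% and 8.29% of all 16501 genes. DESeq2 also gave 26 and 0, and at an unadjusted p under 0.05 the counts were 35 and 0 (28.3% and 22.6% of all genes). Adjusted p alone gave 35 lower and 0 higher (28.4% and 22.7% of all genes), with a median of -1.47 against -0.02. The interaction was largest in size for Rrm2, at -2.41 ± 0.13 (adjusted p = 1.3e-08), then Cdc20 at -2.24 ± 0.10, Ccna2 at -2.12 ± 0.07, Plk1 at -2.04 ± 0.09 and Cenpa at -2.03 ± 0.14. The 5 genes past no threshold were Ccnd2 (0.05 ± 0.09, adjusted p = 0.67), Cdk6 (0.02 ± 0.08), Ccnd3 (-0.27 ± 0.15), E2f1 (-0.17 ± 0.09) and Myc (-0.11 ± 0.10).

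The transcription factors of the late genes shared the interaction. Mybl2 stood at 63.2, 59.2, 51.2 and 60.4 CPM in CT-26 and 51.9, 54.0, 54.7 and 55.4 CPM in Colon 26, and its interaction was -1.91 ± 0.09. Foxm1 stood at 323, 273, 268 and 282 and 205, 207, 202 and 207 CPM (-1.50 ± 0.08). For Mybl2 the models overlapped in tumors, while for Foxm1 every CT-26 tumor was higher, as for 25.0% of all genes.

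Cdc6 stood at 25.4, 27.5, 23.6 and 23.1 CPM in CT-26 tumors and 19.9, 25.6, 24.3 and 25.3 CPM in Colon 26 tumors, and Cdc45 at 71.2, 62.9, 56.7 and 56.6 and 48.5, 49.9, 52.3 and 52.3 CPM, with interactions of -1.52 and -1.68. Mcm3 stood at 226, 199, 182 and 194 and 117, 132, 126 and 127 CPM (-1.32 ± 0.09), and Mcm4 at 131, 127, 107 and 111 and 122, 128, 124 and 132 CPM (-1.21 ± 0.10). Mcm5 in Colon 26 tumors was at 190, 193, 190 and 182 CPM, close to its cultures, and its interaction was -1.84 ± 0.08. Mcm4 overlapped between the models in tumors, while Mcm3 was higher in every CT-26 tumor, as for 25.0% of all genes. Mcm6 had an interaction of -1.23 ± 0.09. Tyms stood at 68.8, 58.0, 55.2 and 60.2 and 65.8, 66.2, 65.6 and 64.9 CPM (-1.36 ± 0.08) and Rrm1 had an interaction of -1.13 ± 0.10. For every gene of this paragraph each CT-26 tumor exceeded each CT-26 culture, as for 38.3% of all genes. Colon 26 tumors lay below their cultures (Cdc45, Mcm4 and Rrm1), above them (Mcm5, Mcm6 and Tyms) or across them. Over all genes 34.6% lay below and 40.4% above.

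Of the mitotic genes, Ccnb1 stood at 148, 137, 126 and 134 CPM in CT-26 tumors and 80.3, 87.0, 79.2 and 82.1 CPM in Colon 26 tumors (-1.46 ± 0.07). Ccnb2 was at 74.8, 63.3, 59.2 and 59.3 CPM in CT-26 tumors (-1.66 ± 0.10). Cdk1 stood at 184, 145, 128 and 137 and 107, 115, 109 and 112 CPM (-1.59 ± 0.13). These 3 genes were above their cultures in every CT-26 tumor, as were 38.3% of all genes. Plk1 stood at 81.8, 73.4, 65.0 and 70.2 and 63.6, 66.9, 60.4 and 64.6 CPM, Aurka at 88.4, 69.1, 64.5 and 69.9 and 58.7, 60.5, 55.0 and 57.8 CPM (-1.66 ± 0.11) and Aurkb at 109, 96.5, 88.2 and 95.0 and 69.4, 69.5, 67.2 and 68.7 CPM (-1.98 ± 0.08). Bub1 stood at 90.9, 78.6, 66.3 and 63.9 and 76.6, 81.6, 85.1 and 85.4 CPM (-1.47 ± 0.14), and Ttk at 46.1, 39.9, 35.2 and 35.6 and 34.5, 33.5, 33.8 and 36.2 CPM (-1.57 ± 0.12). For Bub1 the Colon 26 tumors were below their cultures and the CT-26 tumors above theirs (34.6% and 38.3% of all genes).

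Kif11 stood at 117, 120, 98.1 and 96.3 CPM in CT-26 tumors and 64.8, 74.3, 67.9 and 77.3 CPM in Colon 26 tumors (-1.82 ± 0.12). Birc5 stood at 153, 97.9, 100 and 116 and 95.6, 94.4, 93.1 and 100 CPM (-1.68 ± 0.16), with CT-26 replicate 1 above the rest. Top2a stood at 559, 590, 464 and 470 and 382, 435, 423 and 430 CPM (-1.82 ± 0.12), and Mki67 had an interaction of -1.54 ± 0.11. All 4 had their lowest mean in CT-26 cultures.

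**Figure D5:**
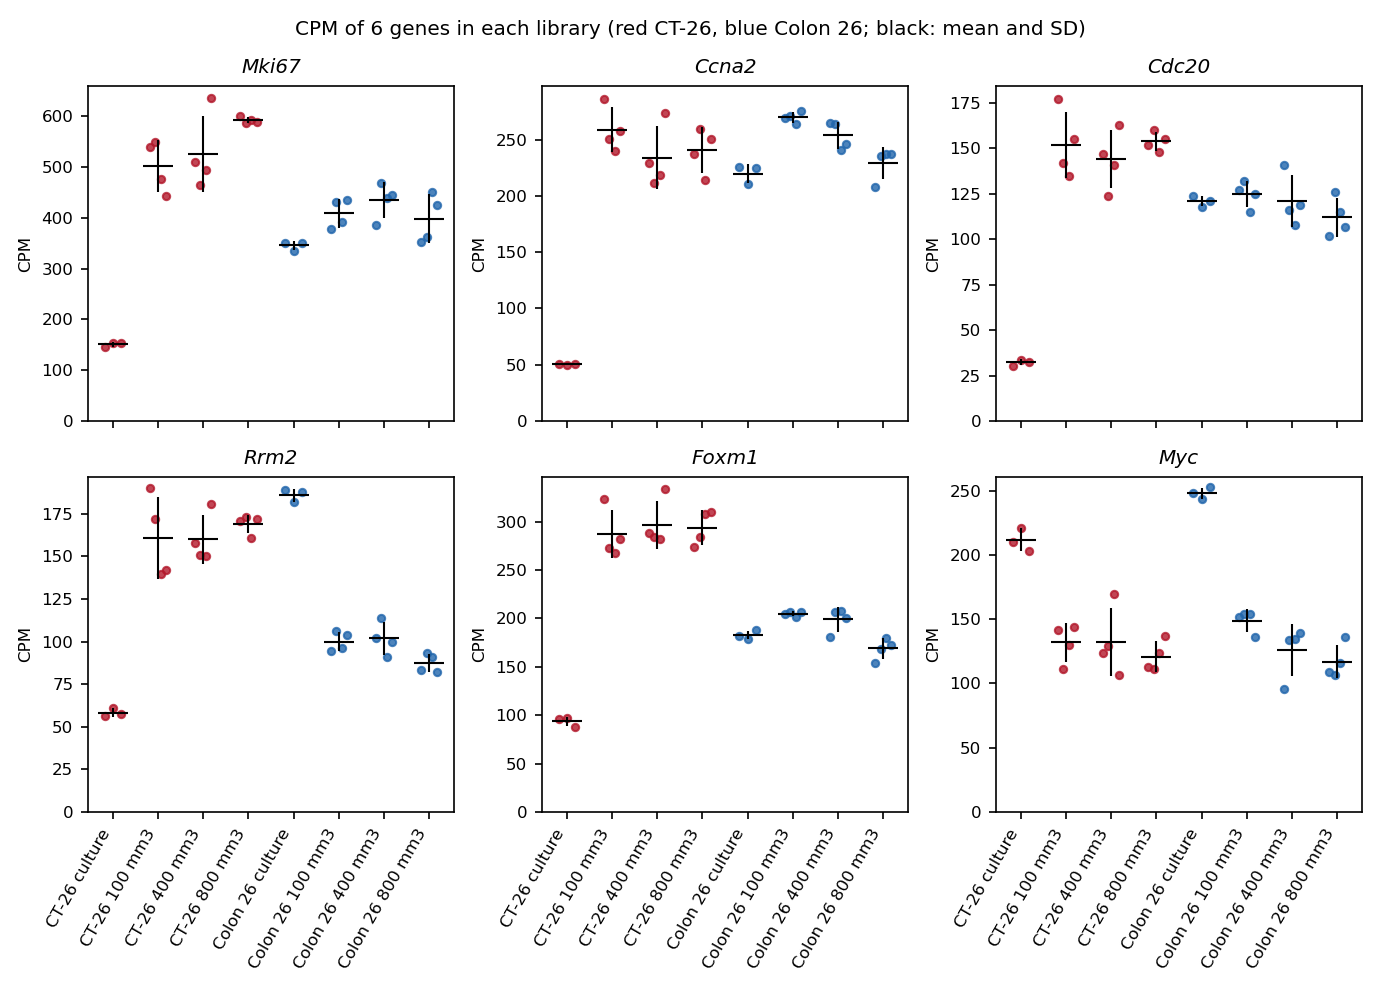
The y axes give CPM of 6 genes in each library of the 8 groups, with black bars for the mean and SD. Mki67, Ccna2, Cdc20, Rrm2 and Foxm1 are lowest in the 3 CT-26 cultures, and Myc is highest in the cultures of both cell lines (203 to 253 CPM).

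As tumors grew, few differences in these genes passed the test. In CT-26, 0 of the 40 were called at 400 against 100 mm3 and 0 at 800 against 100 mm3, where edgeR's test also called 0 of all genes in either direction. At an unadjusted p under 0.05, 0 were higher and 7 lower at 400 mm3 (10.9% and 11.3% of all genes), and 1 was higher and 2 lower at 800 mm3 (5.58% and 4.94%). DESeq2 called 0 of the 40 in both, and gave 3 and 1 lower by adjusted p alone. Its unfiltered fit gave 954 and 84 genes lower in all, 6.32% and 0.549% of the number that edgeR tested. Mki67 was at 0.07 ± 0.12 and 0.23 ± 0.08 in these comparisons, and Ccnd2 stood at 206 ± 14.9 CPM (SD, n = 4) at 100 mm3 and 172 ± 1.30 CPM (SD, n = 4) at 800 mm3 (adjusted p = 0.42).

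In Colon 26, 0 of the 40 were called at 400 mm3, with 0 higher and 3 lower at an unadjusted p under 0.05 (7.28% and 5.38% of all genes) and 0 by DESeq2, against 0 of all genes called higher and 0.0131% lower (0.00656% and 0.0131% by adjusted p alone). At 800 against 100 mm3 edgeR's test and DESeq2 called 0 of the 40, against 0.169% of all genes higher and 1.16% lower by edgeR. At an unadjusted p under 0.05, 20 of the 40 were lower and 0 higher, against 10.8% and 9.87% of all genes. By adjusted p alone, DESeq2 gave 13 of the 40 lower and 0 higher, against 890 and 711 genes in all in its unfiltered fit. In edgeR's test adjusted p alone gave 8 lower and 0 higher, against 3.62% and 3.05% of all genes. Of the 40, 37 had a log2 fold change below 0, with a median of -0.13. The 8 of edgeR's test were Ccne1, Ccna2, Foxm1, Myc, Mcm5, Rrm2, Ccnb2 and Cenpa. Foxm1 fell from 205, 207, 202 and 207 CPM to 154, 168, 180 and 173 CPM (-0.29 ± 0.05, adjusted p = 0.022), and Myc from 152, 154, 154 and 136 CPM to 109, 107, 116 and 136 CPM (-0.36 ± 0.08, adjusted p = 0.05). For Foxm1 the sizes did not overlap (6.40% of all genes had every 800 mm3 tumor below every 100 mm3 tumor), and for Myc they met at 136 CPM, the lowest of the small and the highest of the large tumors.

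Whether growth from 100 to 800 mm3 differed between the models was tested as an interaction over 16 tumors. It was called for 0 of the 40 genes by edgeR's test and by DESeq2 (0.0123% of all genes higher and 0.0185% lower by edgeR). At an unadjusted p under 0.05, 9 of the 40 were lower in Colon 26 and 0 higher, against 6.76% and 5.75% of all genes. By adjusted p alone 0 passed in edgeR's test (0.0370% of all genes higher and 0.0431% lower) and 1 was lower in DESeq2. The unfiltered fit of DESeq2 gave 221 genes lower in all, 1.36% of the number that edgeR tested. Foxm1 came nearest, at -0.33 ± 0.09 (adjusted p = 0.16).

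The average level of the 40 genes differed among single tumors of a group. The mean log2 CPM of the 40 genes was 5.88 ± 0.02 (SD, n = 3) in CT-26 cultures and 6.79 ± 0.03 (SD, n = 3) in Colon 26 cultures. In CT-26 tumors it was 7.03 ± 0.13, 6.94 ± 0.08 and 7.02 ± 0.06 (SD, n = 4 each) by size, and in Colon 26 tumors 6.75 ± 0.03, 6.70 ± 0.04 and 6.63 ± 0.07 (SD, n = 4 each). Replicate 1 of the CT-26 tumors of 100 mm3 had the highest mean of its group, 7.20 against 6.91 to 7.03, and the lowest sum of fibroblast markers, 912 against 1166 to 1712 CPM. Its sum of leukocyte markers, 552 CPM, was also the lowest of its group. Other CT-26 tumors went the other way. Replicate 2 of 100 mm3 had the highest leukocyte sum of its group, 1076 CPM, and the next highest mean, 7.03. At 400 mm3, replicate 3 had the lowest leukocyte and fibroblast sums, 253 and 924 CPM, with a mean of only 6.88. Replicate 4 of 400 mm3 had the highest leukocyte sum, 706 CPM, and the highest mean, 7.05. Replicate 1 of the Colon 26 tumors of 400 mm3 had skeletal muscle markers at 2580 CPM, against 2.64 to 8.09 CPM in the other 3. In that tumor Myc (95.8 CPM) and Kif11 (55.9 CPM) were lowest of their group. Cenpa (90.7 CPM), Tyms (70.8 CPM) and Birc5 (107 CPM) were highest. Other genes of the 40 also lay at an end of the group there. Examples are Foxm1 (181 CPM) and Rrm1 (186 CPM), lowest, and Cdk4 (318 CPM) and Aurka (67.4 CPM), highest. The part of muscle or stroma in these values was not tested.

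Some of the 40 genes share exons with a neighbor, which matters because the handling of strand is not given in the sources used here. On GENCODE M21, exons of Ccnd1, Ccnd2, Ccnd3, Cdk4, Cdk6, Ccne2, Ccna2, Cdk2, Cdc45, Mcm7, Plk1 and Cdc20 overlap exons of genes on the other strand. Foxm1, Mcm7 and Top2a overlap genes on the same strand. Reads of these stretches could have been counted for either gene.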

How the data were processed

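The authors deposited estimated counts per gene, made with Array Studio on Ensembl R78 genes, and FPKM values of the same genes, which they derived per length and library. The aligner, the genome build and the handling of strand are not given in the sources used here. Fractions appeared in 23% of the values above 0, and all values were rounded to whole numbers. Symbols were found for 52207 of 53431 identifiers. Libraries were grouped by model and by culture or tumor size from the labels, and 0 columns of samples were left unused.

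Pairs of groups were compared with edgeR 4.0.16 (R 4.3.3, limma 3.58.1) in quasi-likelihood fits with TMM factors and filterByExpr, across all genes, with Benjamini-Hochberg adjustment. Calls used the thresholds of the study, an adjusted p of at most 0.1 and a log2 fold change of at least 1, while its tool (DESeq2 1.24.0, per the submitters' processing notes) was replaced by DESeq2 1.42.0 as an alternative. Interactions were tested in fits of 4 groups. SEs are the log2 fold change over the root of F. CPM used TMM factors over the 30 libraries. Other alternatives were median-of-ratios factors, library size only, no filter, one fit of all 30 libraries, adjusted p alone and leaving out each library. Scripts were tested on simulated data. Tables were handled with Python 3.11.15, pandas 2.3.3, numpy 2.4.6 and matplotlib 3.10.9.

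Values of every library in culture and at 100 mm3 are given for genes called between the models or with a called interaction, and for Mki67, Myc and the D cyclins. Of the other cell cycle genes, the 4 with the largest called change in each direction between the models are named. The 40 genes and all lists were chosen with earlier results of these data known. A planned search for genes that follow Mki67 over the 24 tumors was not made. A correlation pooled over both models could reflect the difference between them. Promoters came from RefSeq (GRCm38.p6), gene positions and exon overlaps from GENCODE on GRCm38. Libraries held 21384712 counts or more, with at least 215 on each of the 40 genes, and counting error was not separated from the spread of libraries.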

Additional observations from a re-analysis of the deposited data

Results flagged for a closer look

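In the tumor groups, the library farthest from the others of its group was compared with the range of the group, on log2 CPM. Over 264 such groups of 4, the gap to the nearest library took a larger share of the range than Dixon's critical value in 12, and chance flags about 1 in 20 groups. Replicate 1 of the Colon 26 tumors of 400 mm3, which held the most skeletal muscle RNA, stood apart in 4 of the 12, with Cenpa higher (90.7 against 72.1 to 72.5 CPM, gap 0.977 of the range), Tyms higher (0.866), Aurkb higher (0.834) and Myc lower (0.895). Replicate 1 of the Colon 26 tumors of 800 mm3 was low in Ccna2 (208 against 236 to 237 CPM, 0.980) and in Ccnb2 (43.0 against 52.4 to 54.0 CPM, 0.874). In the same group replicate 2 was high in Mcm5 (0.901) and replicate 4 low in Pcna (0.846). Replicate 4 of the Colon 26 tumors of 100 mm3 was low in Myc (0.922). In CT-26, replicate 4 of the 400 mm3 tumors was high in Foxm1 (334 against 282 to 288 CPM, 0.891) and in Cdk2 (0.841), and replicate 1 of the 100 mm3 tumors was high in Cenpa (89.4 against 60.9 to 64.3 CPM, 0.859).

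The change from culture to 100 mm3 tumors differed between the models for 26 genes, by the interaction in edgeR's quasi-likelihood test (log2 scale, Colon 26 minus CT-26, 9.31% of all genes called in this direction). Among the cyclins and factors of transcription it was -2.12 for Ccna2, -1.91 for Mybl2 and -1.50 for Foxm1. Among the genes of replication and nucleotide supply it was -1.52 for Cdc6, -1.68 for Cdc45, -1.32 for Mcm3, -1.21 for Mcm4, -1.84 for Mcm5, -1.23 for Mcm6, -1.13 for Rrm1, -2.41 for Rrm2 and -1.36 for Tyms. Among the kinases and cyclins of mitosis it was -1.46 for Ccnb1, -1.66 for Ccnb2, -1.59 for Cdk1, -2.04 for Plk1, -1.66 for Aurka and -1.98 for Aurkb. For the spindle checkpoint it was -1.47 for Bub1, -1.57 for Ttk and -2.24 for Cdc20. For the structural genes and markers it was -1.82 for Kif11, -2.03 for Cenpa, -1.68 for Birc5, -1.82 for Top2a and -1.54 for Mki67. In culture the batch of library numbers and the model cannot be told apart, and these values rest on the cultures.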

How the results depend on the processing

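Without the minimum fold, genes called in either direction numbered 37 in culture and 29, 28 and 31 between tumors of 100, 400 and 800 mm3. They numbered 37 in CT-26 and 32 in Colon 26 tumors against culture. For the interaction they numbered 35, and 8 in Colon 26 tumors of 800 against 100 mm3. By that rule 42.2% of all genes were higher and 40.4% lower in culture. Between tumors these shares were 26.4% and 30.1%, 25.9% and 26.3%, and 28.3% and 31.0% by size. Against culture they were 40.8% and 34.7% in CT-26 and 42.6% and 36.3% in Colon 26. For the interaction they were 22.7% and 28.4%, and for Colon 26 at 800 against 100 mm3 3.05% and 3.62%. Leaving out single libraries gave 22 to 24 calls in culture, 0 to 1 at 100 mm3, 0 to 2 at 800 mm3, 24 to 25 in CT-26 tumors against culture and 26 to 27 for the interaction (Ccne2 gained without CT-26 replicate 4). The gene gained at 100 mm3 was Ccnd2, without CT-26 replicate 1 or Colon 26 replicate 2, and those at 800 mm3 were Ccnb1 and Ccne2, both without CT-26 replicate 3 or Colon 26 replicate 3, and Ccnb1 also without CT-26 replicate 1 or Colon 26 replicate 4. DESeq2, median-of-ratios factors and library size only kept all 75 called values past the thresholds in their direction, and 1 was lost in the fit of all 30 libraries (Foxm1 in culture, 0.97) and 1 without the filter (Ccnd2 in culture, -0.97). No called value turned its direction, and scalings moved the median of all genes by at most 0.06. No paired analysis was possible because the labels carry no replicate numbers that tie libraries of different groups. The lowest count of the 40 genes was 215, and depth and the 3 or 4 libraries a group both limit the precision. Causes of these shifts were not tested.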
